A study of Mus musculus with 9 samples.

Results

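The junction genes of the blood-testis barrier were described across the testes of mice carrying the R264W substitution in Piwil4. The 9 genes were taken by symbol from the 22337 genes of the expression table, by a rule that used no measured value, although the genes were proposed with earlier results of these data known. They are the claudins Cldn11, Cldn3 and Cldn5, occludin (Ocln), tricellulin (Marveld2), the junctional adhesion molecule Jam2, the scaffold protein ZO-1 (Tjp1), connexin 43 (Gja1) and N-cadherin (Cdh2). RNA sequencing was carried out on whole testes from mice of 3 genotypes at 3 weeks of age. WT-WT testes carried no knock-in allele, WT-KI testes carried Piwil4 WT/R264W and KI-KI testes carried Piwil4 R264W/R264W, with 3 testis samples of each. The allele was made with CRISPR-Cas9 in C57BL/6 zygotes and is a germline change in every cell of the animal, so it is not restricted to germ cells. The labels do not state littermates, the number of founders, or whether the 3 samples of a genotype came from 3 animals, so p-values measure the spread between these samples.

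The blood-testis barrier is built between neighbouring Sertoli cells, the somatic nurse cells of the seminiferous tubule. It joins tight junctions, which seal the space between cells, with adherens junctions, gap junctions and the ectoplasmic specialisation, a testis-specific bundle of actin, and it divides the tubule into a basal and an adluminal compartment. In the mouse the barrier forms before puberty, as the first germ cells enter meiosis, and is then taken apart and rebuilt as each cohort of germ cells crosses it. The first wave of spermatogenesis makes its first round spermatids at around 3 weeks. Testes of the same age can therefore differ in how far that wave has come.

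The libraries held between 17.96 and 24.3 M estimated counts each. Of the 18 Sertoli cell markers, 0 were at 0 in any testis, and the mean log2 CPM (counts per M of library, after TMM scaling for library composition) of the spermatocyte markers lay between 7.58 and 7.74, so the libraries had the RNA of testis. The stage of the first wave was followed with the round spermatid score, the mean log2 CPM of 18 genes that are transcribed in round spermatids. In WT-WT testes 1, 2 and 3 the score was 5.53, 2.02 and 0.74. In WT-KI testes 1, 2 and 3 it was 4.54, 2.97 and 0.20. In KI-KI testes 1, 2 and 3 it was 1.78, 3.17 and 5.35. The score therefore varied over 5.33 log2 units within a single age and overlapped between the genotypes. The 9 epididymal markers summed to 54.2 CPM in KI-KI replicate 1 and to between 4.68 and 11.9 CPM in the other libraries. Without KI-KI replicate 1, the log2 fold change in KI-KI against WT-WT moved from -0.12 to -0.29 for Cldn5 and from -0.16 to -0.32 for Marveld2. It moved from -0.14 to -0.26 for Ocln, from -0.07 to -0.18 for Gja1 and from 0.05 to 0.14 for Cldn3. In KI-KI against WT-KI it moved from -0.16 to -0.33 for Cldn5 and from -0.31 to -0.47 for Marveld2. The members named here are those that moved most, and Tjp1 stayed at -0.13 in KI-KI against WT-WT. Other libraries moved some members as far, with Cldn3 at -0.29 in KI-KI against WT-WT without KI-KI replicate 3. With KI-KI replicate 1 left out 0 members were called in either comparison.

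The promoter sequences of 4 members are shown because these genes had the steepest slopes on the score (Ocln, Cldn3 and Marveld2) or the highest level (Cldn11). Each is the 250 bases before the transcript start in RefSeq on GRCm38.p6, printed on the strand of the gene, and capitals mark the letters of the motifs searched. They lie at chr13:100552719-100552968 on the minus strand for Ocln, chr13:100616972-100617221 on the minus strand for Marveld2, chr3:31149670-31149919 on the plus strand for Cldn11 and chr5:134985964-134986213 on the plus strand for Cldn3.
Ocln: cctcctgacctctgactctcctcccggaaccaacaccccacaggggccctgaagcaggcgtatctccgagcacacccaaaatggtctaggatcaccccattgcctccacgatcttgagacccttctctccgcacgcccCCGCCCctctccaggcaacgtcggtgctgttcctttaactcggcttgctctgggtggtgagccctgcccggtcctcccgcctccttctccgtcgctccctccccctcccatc
Marveld2: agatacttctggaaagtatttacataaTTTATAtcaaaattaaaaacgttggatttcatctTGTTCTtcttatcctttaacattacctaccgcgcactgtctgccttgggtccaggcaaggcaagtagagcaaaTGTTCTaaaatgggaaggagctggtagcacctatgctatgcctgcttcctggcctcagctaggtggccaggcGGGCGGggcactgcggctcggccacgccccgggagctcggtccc
Cldn11: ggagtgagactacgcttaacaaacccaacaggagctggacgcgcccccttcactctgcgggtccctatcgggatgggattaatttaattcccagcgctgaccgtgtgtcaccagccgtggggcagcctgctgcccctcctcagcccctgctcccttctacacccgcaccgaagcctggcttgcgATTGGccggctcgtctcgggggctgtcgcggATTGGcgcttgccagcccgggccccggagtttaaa
Cldn3: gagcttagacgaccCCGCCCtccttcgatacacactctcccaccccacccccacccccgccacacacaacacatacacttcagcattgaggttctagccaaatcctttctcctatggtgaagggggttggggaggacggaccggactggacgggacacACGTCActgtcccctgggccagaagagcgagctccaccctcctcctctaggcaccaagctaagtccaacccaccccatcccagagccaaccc

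The promoter table covered 7 of the 9 members, without Jam2 and Cdh2. The motifs were searched on both strands of windows of 300 bases that reach 50 bases past the transcript start. The GC box (GGGCGG) was found in a window of every member covered except Gja1, and in 35.7% of the 32851 promoters of the table. In Ocln and Cldn3 it was read on the opposite strand, as the capitals CCGCCC show, and in Cldn11 it lay past the bases printed here. The CCAAT box (CCAAT) was present 2 times in Cldn11 and 2 times in Cldn5 as ATTGG, in the window of a second transcript start of Ocln, and in 37.4% of all promoters. The cAMP response element motif (TGACGT) was found in Cldn3 and Gja1 and in 7.51% of all promoters. Marveld2 held 2 androgen receptor motifs (AGAACA), read as TGTTCT and found in 19.0% of promoters, and a TATA box (TATAAA), found in 13.6%. The GATA motif (AGATAA), present in 11.2% of promoters, was found among these genes in Gja1. The SOX motif (AACAAT), the E-box (CACGTG) and the ETS motif (CCGGAAG) had 0 matches in the windows of these genes and were present in 10.7%, 7.15% and 8.86% of all promoters. These matches describe letters in a window and not bound sites, and RNA levels were the only readout here.

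On GRCm38 the members differ widely in structure. Cldn3 and Cldn5 each have 1 exon, with 657 and 654 bases of coding sequence, and Gja1 has its coding sequence in 1 of 2 exons. The longest coding transcript of Tjp1 has 28 exons over a gene of 231617 bases. Ocln and Marveld2, which encode related proteins with a MARVEL membrane domain, are neighbours on the minus strand of chromosome 13. Ocln spans chr13:100496507-100552718 and Marveld2 spans chr13:100595957-100616971, with 43.2 kb and 0 coding genes between them. The counting was not stated to use strand, so reads of the noncoding genes that overlap Tjp1, Jam2, Cldn3, Marveld2 and Cdh2 may not be separated from those of the members.

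All 9 genes were detected in all 9 testes, at levels that spanned from 0.52 to 83.8 FPKM (fragments scaled to transcript length and library size, so that genes can be compared). Cldn11, the claudin that forms the Sertoli cell seal and whose loss leaves male mice sterile, was the most abundant, with a mean of 71.6 ± 12.2 FPKM (SD, n = 9). It was higher than 91.8% of the genes tested by this mean. Cdh2 followed at 31.5 ± 2.37 FPKM, Gja1 at 28.9 ± 6.96 FPKM, Tjp1 at 24.2 ± 2.98 FPKM and Jam2 at 19.6 ± 1.92 FPKM. Ocln had 7.14 ± 2.03 FPKM, Cldn3 had 3.999 ± 0.845 FPKM and Cldn5 had 3.73 ± 0.993 FPKM. Marveld2, the protein of the corners where 3 cells meet, was the least abundant at 0.814 ± 0.209 FPKM, and its library counts lay between 29 and 65. The order was separated by gaps between Cldn11 and Cdh2, between Jam2 and Ocln, and between Cldn5 and Marveld2, where the ranges of the 9 testes did not overlap. Cdh2, Gja1, Tjp1 and Jam2 overlapped with their neighbours in the order, although Tjp1 was above Jam2 in 9 of 9 testes. Ocln was above Cldn3 in 8 of 9 testes, and Cldn3 above Cldn5 in 6 of 9.

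**Figure D1:**
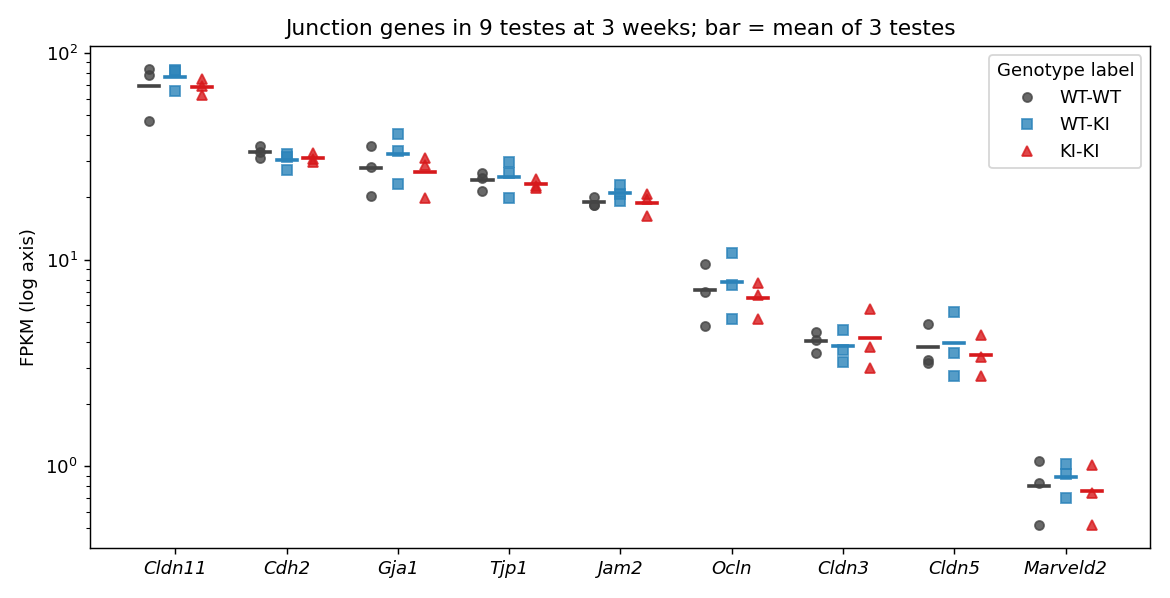
FPKM on a log axis of the 9 junction genes in each testis, ordered by mean level, with points coloured by genotype label and a bar at the mean of 3 testes. Cldn11 lies above the other genes and Marveld2 below them in every testis, and the 3 genotypes overlap for each gene on this scale.

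The members varied somewhat more among the 9 testes than the typical gene with a CPM above 0 in every testis. The highest CPM of a member was 1.74 times its lowest in the median. Over the genes tested whose lowest CPM was above 0 the median was 1.53 times, and genes were not matched by level. Cdh2 varied least (1.31 times) and Cldn5 most (2.16 times).

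To ask whether the barrier genes differed with the Piwil4 genotype, the 3 pairs of genotypes were compared with edgeR. No junction gene passed the test in any of the 3 comparisons, and the members' values in the genotypes lay largely on top of each other. Of the 9 members, 0 had an adjusted p under 0.05 in each comparison, beside 0.0% of all genes tested in each, and 0 did so with DESeq2 or limma. At an unadjusted p under 0.05 the count of members was again 0 with edgeR after TMM scaling, DESeq2 and limma in each comparison. The edgeR background at that threshold was 1.26% of genes for KI-KI against WT-WT, 2.22% for KI-KI against WT-KI and 1.11% for WT-KI against WT-WT. The comparisons share libraries and are not independent of one another.

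The claudins seal the barrier strand by strand. In WT-WT, WT-KI and KI-KI testes 1, 2 and 3 in turn, Cldn11 was at 96.2, 148 and 157 CPM, at 156, 125 and 152 CPM, and at 141, 132 and 126 CPM. WT-WT replicate 1, the testis with the highest round spermatid score, was the lowest, and the genotypes overlapped. The log2 fold change of Cldn11 in KI-KI against WT-WT was -0.01 ± 0.18 (SE), with a 95% interval from -0.45 to 0.43. Without WT-WT replicate 1 it was -0.20, with an unadjusted edgeR p under 0.05, like 1164 of the 15655 genes then tested, and no adjusted call.

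Cldn3, a claudin of newly made Sertoli cell junctions that responds to androgen, was at 6.19, 5.19 and 4.44 CPM in WT-WT, at 5.87, 4.13 and 4.52 CPM in WT-KI, and at 4.78, 3.83 and 7.84 CPM in KI-KI. The highest value was in KI-KI replicate 3 and the lowest in KI-KI replicate 2, so a single genotype held both ends. The log2 fold change in KI-KI against WT-WT was 0.05 ± 0.30, with an interval from -0.67 to 0.77, and was -0.29 without KI-KI replicate 3. Cldn5, best known as the claudin of blood vessel endothelium and also present in Sertoli cells, was at 4.93, 7.01 and 4.63 CPM in WT-WT, at 5.06, 8.15 and 3.78 CPM in WT-KI, and at 6.17, 3.91 and 5.15 CPM in KI-KI. WT-KI held both its highest and its lowest testis. Its log2 fold change was -0.12 ± 0.25 in KI-KI against WT-WT and 0.10 without WT-WT replicate 2. The 12 endothelial markers summed to between 47.7 and 60.5 CPM over the 9 testes, with 0 of them at 0.

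Occludin and tricellulin are membrane proteins of the tight junction strand. Ocln was at 14.9, 19.5 and 26.5 CPM in WT-WT, at 22.1, 15.0 and 30.5 CPM in WT-KI, and at 21.4, 19.1 and 14.7 CPM in KI-KI. The highest testes were WT-KI replicate 3 and WT-WT replicate 3, which had the lowest scores, and the genotypes overlapped. Marveld2 was at 1.77, 2.60 and 2.89 CPM in WT-WT, at 2.91, 2.07 and 3.10 CPM in WT-KI, and at 2.64, 2.20 and 1.66 CPM in KI-KI. The same 4 testes (WT-KI replicates 1 and 3, WT-WT replicate 3 and KI-KI replicate 1) were the highest for both genes, except that WT-WT replicate 3 ranked after WT-KI replicate 1 for Marveld2. The fold change in KI-KI against WT-KI was -0.29 ± 0.27 on the log2 scale for Ocln, with an interval from -0.94 to 0.36. It was -0.51 without WT-KI replicate 2, -0.15 without KI-KI replicate 3 and -0.0063 without WT-KI replicate 3. For Marveld2 it was -0.31 ± 0.27, with an interval from -0.94 to 0.32. It was -0.47 without WT-KI replicate 2, -0.20 without WT-KI replicate 3 and -0.16 without KI-KI replicate 3. The FPKM ratio of Ocln to Marveld2 stayed between 7.37 and 10.5 across the testes, while the FPKM of Ocln itself ranged from 4.79 to 10.77.

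Jam2, an immunoglobulin-like adhesion molecule, was at 47.4, 58.9 and 61.3 CPM in WT-WT, at 69.2, 54.7 and 69.4 CPM in WT-KI, and at 59.8, 55.3 and 46.2 CPM in KI-KI. Its genotypes overlapped, and the log2 fold change in KI-KI against WT-KI was -0.26 ± 0.14, with an interval from -0.59 to 0.07. Tjp1, the ZO-1 scaffold that ties claudins and occludin to actin, was at 141, 154 and 139 CPM in WT-WT, at 178, 121 and 142 CPM in WT-KI, and at 133, 131 and 132 CPM in KI-KI. For Tjp1 every KI-KI testis lay below every WT-WT testis on the CPM scale. The log2 fold change was -0.13 ± 0.07, with an interval from -0.29 to 0.03, an unadjusted edgeR p of 0.098 and an adjusted p of 0.9998. The exact two-sided permutation test gave p = 0.1, the smallest that 3 against 3 can give. This was 1 of 9 members with groups that did not overlap in KI-KI against WT-WT, beside 5.68% of all genes. On the FPKM scale the 2 groups overlapped, with WT-WT replicate 1 at 21.42 and KI-KI replicate 1 at 24.52. Of the 9 members, 0 had groups that did not overlap in KI-KI against WT-KI, beside 7.15% of genes.

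Gja1, the main connexin of the Sertoli cell, was at 69.0, 86.8 and 109 CPM in WT-WT, at 115, 73.4 and 101 CPM in WT-KI, and at 96.3, 89.04 and 65.9 CPM in KI-KI. The genotypes overlapped over most of this range. Cdh2, the N-cadherin of Sertoli and germ cell contacts, was at 135, 146 and 132 CPM in WT-WT, at 128, 111 and 128 CPM in WT-KI, and at 133, 124 and 127 CPM in KI-KI. Every WT-KI testis lay below every WT-WT testis. The log2 fold change of Cdh2 in WT-KI against WT-WT was -0.17 ± 0.09, with an interval from -0.39 to 0.04, an unadjusted edgeR p of 0.098 and an adjusted p of 0.9998. The exact permutation test gave p = 0.1, and 1 of 9 members had groups that did not overlap here, beside 5.31% of all genes. KI-KI replicate 1, at 133 CPM, lay within the range of WT-WT. When the libraries were scaled to the summed Sertoli cell markers, the median of all genes moved to -0.22 in WT-KI against WT-WT and to 0.20 in KI-KI against WT-KI. Cdh2 was then at -0.38 ± 0.15 and 0.26 ± 0.09, with an unadjusted edgeR p under 0.05 in both, beside 1.46% and 4.10% of genes, and no adjusted call. In KI-KI against WT-WT 0 members had such a p on this scale, beside 0.869% of genes.

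The median log2 fold change of the 9 members was -0.11 in KI-KI against WT-WT, -0.16 in KI-KI against WT-KI and 0.11 in WT-KI against WT-WT. Over all genes tested it was -0.01, 0.01 and -0.02. The intervals of single members reached from -0.94 to 0.89, so differences of this size could not be told apart from the spread between testes. For Tjp1 and Cdh2 the intervals in KI-KI against WT-WT were narrower, ranging from -0.29 to 0.03 and from -0.27 to 0.06. With the round spermatid score in the model, the lowest unadjusted edgeR p of a member was 0.23, 0.068 (Jam2) and 0.051 (Cdh2) in the 3 comparisons, beside 2.57%, 3.21% and 3.61% of all genes under 0.05. Without WT-KI replicate 2, Cldn11, Jam2 and Tjp1 had an unadjusted p under 0.05 in KI-KI against WT-KI, like 1145 of the 15819 genes then tested, and 0 members had an adjusted one.

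**Figure D2:**
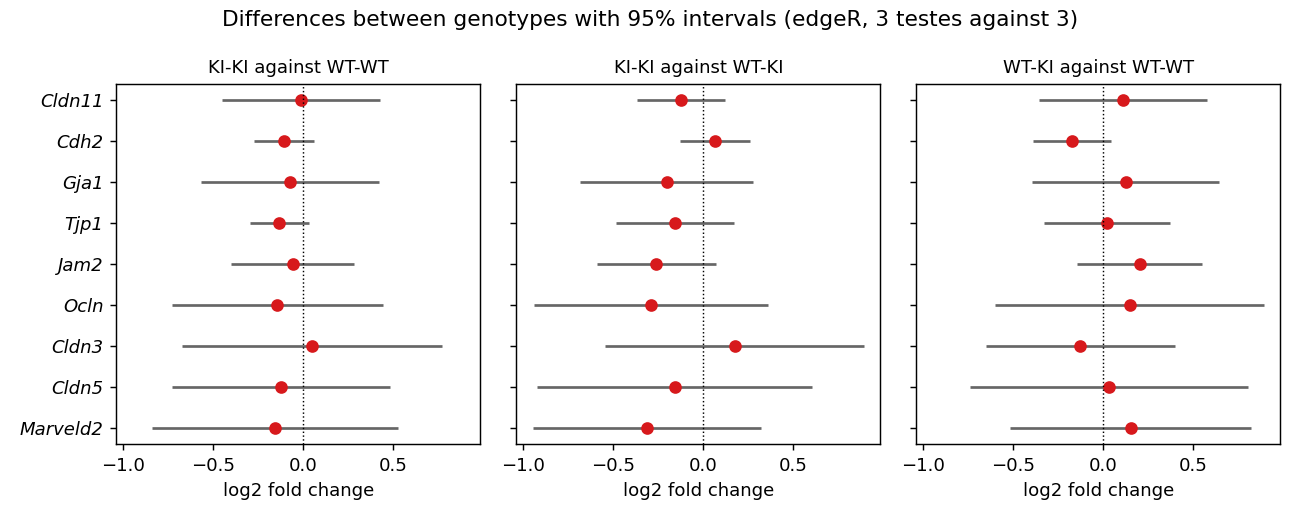
Log2 fold changes of each junction gene in 3 pairs of genotypes (edgeR, 3 testes against 3), with lines for 95% intervals and a dotted line at 0. Every interval crosses 0, and the intervals are widest for Cldn3, Cldn5, Ocln and Marveld2.

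To ask how the junction genes moved with the progress of the first wave, the slope of each gene on the round spermatid score was fitted over all 9 testes with the genotype in the model. Ocln fell as the score rose, and it was the only member to pass the test with all 9 libraries and TMM scaling. Another 5 members (Cldn11, Jam2, Gja1, Marveld2 and Cdh2) had slopes below 0 and Cldn3, Tjp1 and Cldn5 had slopes above 0, without passing. In whole testis RNA, fewer Sertoli cells and less RNA per Sertoli cell cannot be told apart, and CPM is a share of the library, so it also moves with the RNA of other cells.

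The slope of Ocln was -0.15 ± 0.04 log2 per unit of score (SE, 95% interval from -0.23 to -0.07, edgeR adjusted p = 0.0124). Over the span of scores of these testes this was a change to 0.578 times the level. Of the 9 members, 1 passed, beside 25.6% of the 15771 genes tested. It was in the falling direction, beside 8.17% of genes, and 0 passed in the rising direction, beside 17.4%. At an unadjusted p under 0.05 the slopes of 4 members (Ocln, Cldn11, Jam2 and Cldn3) counted, beside 38.7% of all genes, so the members as a set did not stand out by number. The median slope was -0.06 for the members and -0.01 for all genes. Slopes were below 0 for 6 of 9 members and for 55.2% of all genes.

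Cldn11 had a slope of -0.07 ± 0.03 log2 per unit (adjusted p = 0.0698 with edgeR) and Jam2 one of -0.06 ± 0.02 (adjusted p = 0.0841). The slope was -0.08 ± 0.04 for Gja1 (edgeR adjusted p = 0.138) and -0.12 ± 0.06 for Marveld2 (edgeR adjusted p = 0.152). Cldn3 went the other way, with a slope of 0.12 ± 0.05 and an interval from 0.01 to 0.22, but its edgeR adjusted p was 0.0892. The scaffold Tjp1 at 0.02 ± 0.03, the cadherin Cdh2 at -0.01 ± 0.02 and Cldn5 at 0.02 ± 0.07 were close to 0, with edgeR adjusted p-values of 0.626, 0.807 and 0.877. The intervals leave less room for Cdh2, from -0.05 to 0.03, than for Cldn5, from -0.13 to 0.16.

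**Figure D3:**
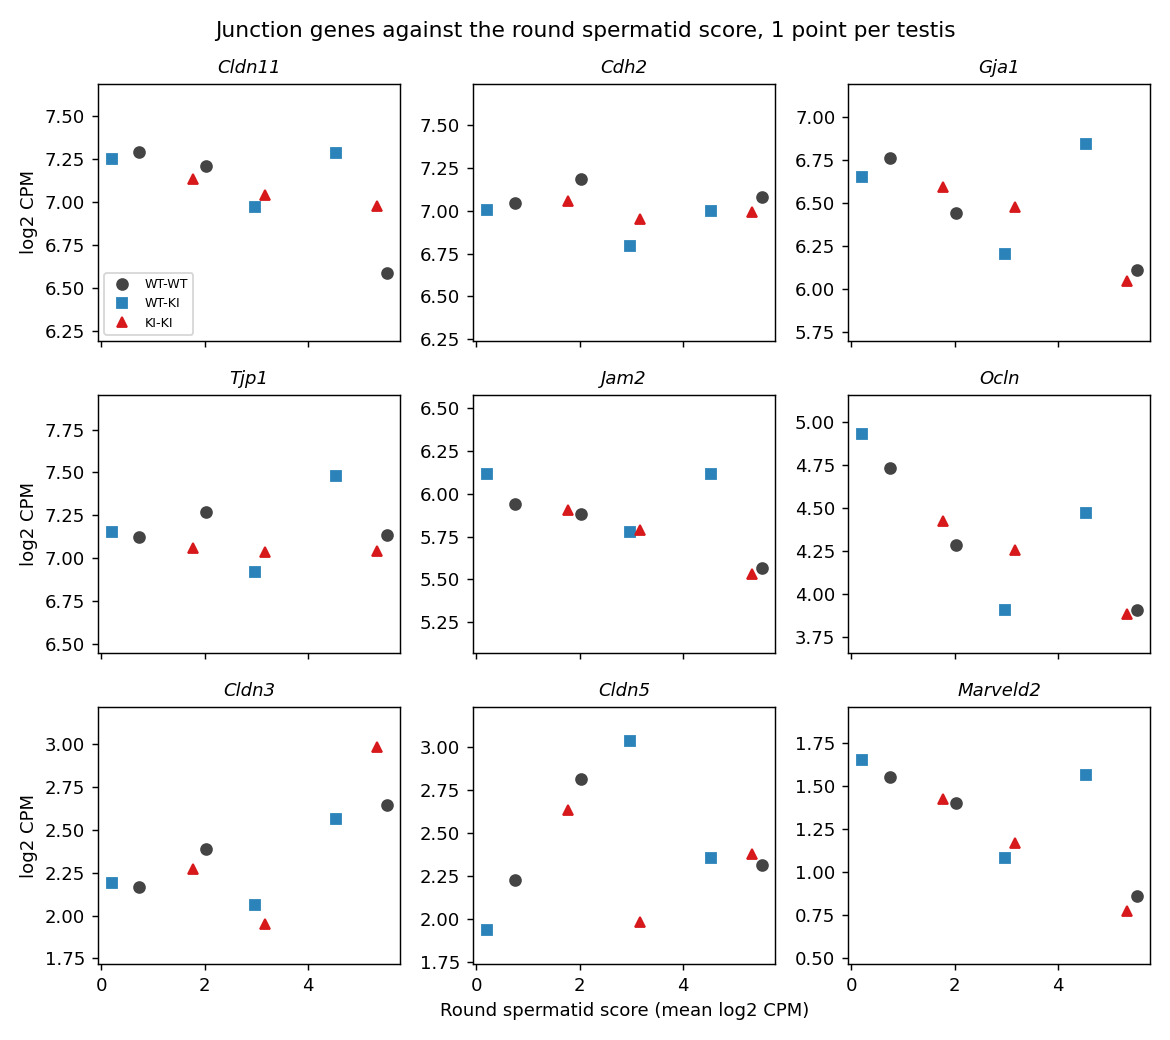
Log2 CPM of each junction gene against the round spermatid score, with 1 point per testis and the genotype given by colour and shape. Every panel spans the same number of log2 units, and WT-KI replicate 1, at a score of 4.54, lies above the other testes of high score for Cldn11, Gja1, Tjp1, Jam2, Ocln and Marveld2.

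The 2 testes of highest score, WT-WT replicate 1 and KI-KI replicate 3, had an Ocln level of 22.4% and 23.1% of that of Tjp1 by FPKM, and the 2 of lowest score, WT-KI replicate 3 and WT-WT replicate 3, had 41.2% and 38.2%. Within the claudins, Cldn3 was at 9.56% and 9.25% of the FPKM of Cldn11 in the same 2 testes of highest score and between 4.20% and 5.58% in the other 7. These ratios within a library do not depend on how it was scaled.

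The Sertoli cell markers also varied among the testes. Their summed level was 1924, 2548 and 2571 CPM in WT-WT, 2890, 2392 and 2748 CPM in WT-KI, and 2503, 2331 and 2175 CPM in KI-KI. WT-WT replicate 1 was the lowest and WT-KI replicate 1 the highest, although both had a high score. Of the 18 markers, 6 fell with the score, among them Cst12, Cst9 and Aard, and 1 (Rhox5) rose, beside 8.17% of all genes falling and 17.4% rising. Germ cell markers moved as well. Of 14 spermatocyte markers 6 fell and 4 rose, and of 9 spermatogonia markers tested 2 fell and 2 rose. Their part in the slopes of the members was not tested. When the libraries were scaled to the summed Sertoli markers, the median slope of all genes moved from -0.01 to 0.04, and slopes are to be read against that shift. Ocln then had a slope of -0.10 ± 0.04 and no longer passed (edgeR adjusted p = 0.0680), although only 0.241% of all genes fell on that scale, against 8.17% with TMM. Cldn3 rose on it, with a slope of 0.17 ± 0.05 (edgeR adjusted p = 0.0251), beside 19.8% of all genes rising and 20.1% called in either direction. The slopes of Cldn11, Jam2 and Gja1 were -0.03, -0.01 and -0.03, and the slope of Cdh2 changed sign to 0.04.

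**Figure D4:**
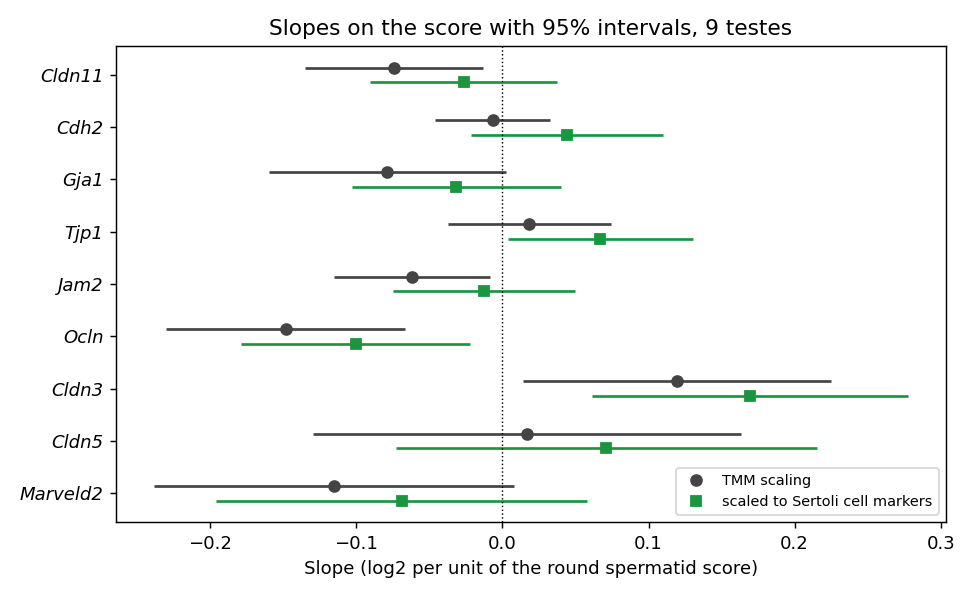
Slopes of the junction genes on the round spermatid score in log2 per unit, with 95% intervals, under TMM scaling and under scaling to the Sertoli cell markers. Each gene shifts to the right under the second scaling, where the intervals of Ocln stay below 0 and those of Cldn3 and Tjp1 lie above 0.

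The slopes depended on single libraries. Without WT-WT replicate 1, 0 members were called, beside 2.15% of all genes falling and 12.6% called in either direction, and the slopes of Cldn11, Gja1, Jam2 and Marveld2 were -0.02, -0.05, -0.05 and -0.09. Without WT-KI replicate 1, which joined a score of 4.54 with the highest Sertoli marker sum, 5 members fell (Ocln, Cldn11, Gja1, Jam2 and Marveld2), beside 17.1% of all genes falling and 38.3% called in either direction. Their slopes were then -0.20, -0.11, -0.14, -0.10 and -0.17, with edgeR adjusted p-values of 0.000937, 0.00114, 7.08e-05, 0.00139 and 0.0350. Without WT-KI replicate 2, 3 members fell (Ocln, Cldn11 and Jam2), beside 11.2% of genes falling and 30.1% called. Ocln lost its call without WT-WT replicate 1 (edgeR adjusted p = 0.0812), without WT-WT replicate 3 (0.0632) and without WT-KI replicate 3 (0.0809). These testes lay at the ends of the range of scores. However, Ocln kept its call without KI-KI replicate 3, which also had a high score (5.35). Its slope stayed between -0.20 and -0.13 in all 9 such fits, and it passed without KI-KI replicate 1 (edgeR adjusted p = 0.0306). The slope of Cldn3 lay between 0.07, without KI-KI replicate 3, and 0.15, without WT-KI replicate 3, and passed in 0 of 9. That of Cldn5 was -0.07 without WT-KI replicate 3 and 0.07 without WT-WT replicate 1.

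**Figure D5:**
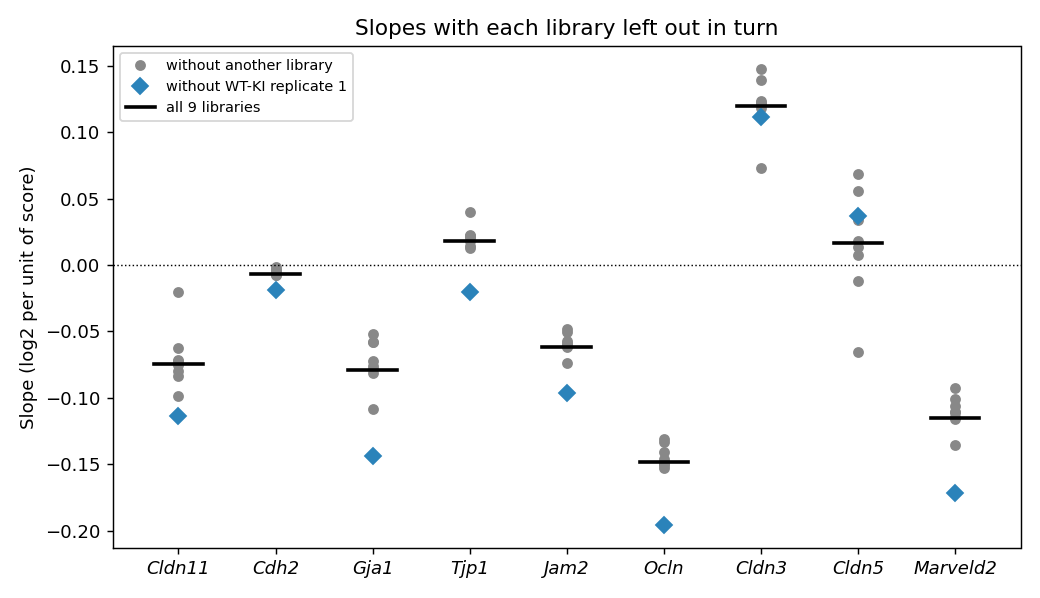
Slope of each junction gene on the score with each library left out in turn, as points, and with all 9 libraries, as bars. Leaving out WT-KI replicate 1 (diamonds) gives the lowest slope for Cldn11, Cdh2, Gja1, Tjp1, Jam2, Ocln and Marveld2.

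The other genes of the junctions were read from 6 lists, whose counts stand beside 8.17% of all genes falling and 17.4% rising. Of 18 further tight junction genes tested, 3 fell with the score and 2 rose. Jam3, the binding partner of Jam2, fell with a slope of -0.08 ± 0.02 (edgeR adjusted p = 0.00496), F11r (JAM-A) with -0.11 ± 0.02 (0.00647) and Cldn12 with -0.09 ± 0.03 (0.0255). Ybx3, a nucleic acid binding protein that can attach to ZO-1 and is abundant in germ cells, rose with a slope of 0.09 ± 0.02. The 3 that fell are membrane proteins, but so are many genes of this list that were not called, with slopes of either sign. The list had a median slope of -0.05.

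Of 19 genes of the adherens junction and ectoplasmic specialisation, 0 fell and 1 rose. This was Nectin3, which spermatids use to hold to Sertoli cells, with a slope of 0.08 ± 0.02 (edgeR adjusted p = 0.00564) and a mean of 123 FPKM. Of 7 other gap junction genes 0 passed in either direction, by edgeR, with 0 called by the Sertoli scaling as well. Of 6 desmosome genes 2 rose, plakoglobin (Jup) with 0.16 ± 0.04 and Pkp1 with 0.30 ± 0.10. Of 14 polarity genes 4 fell, with Cdc42 at -0.09 ± 0.02, Llgl2 at -0.15 ± 0.04 and Prkci at -0.08 ± 0.03 as the lowest p-values, and 2 rose, Crb1 and Patj. Of 19 regulators of the barrier 3 fell, the transcription factor Wt1 (-0.07 ± 0.02), Tgfb2 (-0.19 ± 0.06) and the FSH receptor Fshr (-0.13 ± 0.04). The androgen-driven homeobox gene Rhox5 was the 1 that rose (0.10 ± 0.03). Wt1, Fshr and Rhox5 are also among the Sertoli cell markers counted above, so they are part of the sum used for the Sertoli scaling. With the Sertoli scaling 0 genes of these 6 lists fell, beside 0.241% of all genes falling on that scale. Nectin3, Ybx3, Jup, Pkp1, Crb1, Patj and Rhox5 still rose, beside 19.8% of all genes rising. Between genotypes 0 genes of the 6 lists had an edgeR adjusted p under 0.05. At an unadjusted p under 0.05 they were Timp1 and Rhox5 in KI-KI against WT-WT, beside 1.26% of all genes, and Lsr and Dmrt1 in KI-KI against WT-KI, beside 2.22%.

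The genes whose log2 CPM ran most like each member over the 9 testes were found among 14466 genes. They were Creb1 (Pearson r = 0.990) for Ocln, Dicer1 (0.997) for Marveld2, Srebf1 (0.990) for Cldn11 and Ctnnal1 (0.989) for Gja1. For Jam2 it was St3gal6 (0.986), for Tjp1 Ncoa2 (0.989) and for Cdh2 Zfp318 (0.934). For Cldn3 the nearest was Rangap1 (0.919) and for Cldn5 it was Syf2 (0.959). These are descriptions over testes that share their depth, composition and stage, and the closest of many genes will be close by selection.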

How the data were processed

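Whole testes of 3 genotypes, 3 samples each, were grouped by the genotype in the labels. Per the labels and the study's methods, mRNA libraries (VAHTS mRNA-seq v2) were read in pairs and filtered with fastp (0.18.0), and StringTie (1.3.1) computed the FPKM values that the authors deposited. The authors deposited estimated counts beside them, not scaled for library size, of which 89.2% were whole. The submitters' processing notes name the build mm39. The aligner and the counting tool are not given in the sources used here. Coordinates and gene models came from GENCODE M21 (GRCm38), which held 99.5% of the identifiers, and not from the deposited files.

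Estimated counts were rounded and tested with edgeR (4.0.16, R 4.3.3) with filterByExpr, TMM, the two-sided quasi-likelihood test and Benjamini-Hochberg adjustment over all genes tested. Pairs of genotypes were fitted alone (between 15413 and 15543 genes) and the slope over 9 libraries with genotype (15771 genes). The score used log2 CPM with a prior count of 1. Calls had an adjusted p under 0.05. A count of 0 allows up to 3 counts, between 0.124 and 0.167 CPM, which covers counting error only. Exact two-sided permutation tests compared mean log2 CPM. Pairs of replicates of 1 genotype all differed beyond sampling noise. Alternatives were DESeq2 (1.42.0), its size factors, limma (3.58.1) on log2(FPKM + 0.1) and log2(FPKM + 1) for genes of 0.5 FPKM or more in the mean, no filter, other scores and scalings, the replicate number as a block, and leaving out each library. The text names all members, up to 3 called genes in each direction from each list, and the gene nearest to each member by Pearson r. A called gene of the tight junction list is not reported here. Members and lists were chosen with earlier results of these data known.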

Additional observations from a re-analysis of the deposited data

How the results depend on the processing

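Between genotypes, 0 genes were called by edgeR under any setting, and DESeq2 called 2 in KI-KI against WT-WT and 6 in KI-KI against WT-KI, with 0 members among them. Fold changes near 0 changed sign with the setting. In KI-KI against WT-WT, Cldn3 was at -0.047 with the score as covariate and -0.0026 with the replicate block, and Cldn11 was at 0.0019 with DESeq2 and with its size factors, 0.026 and 0.025 with limma on log2(FPKM + 0.1) and log2(FPKM + 1), 0.061 with the score as covariate, 0.013 with Sertoli scaling and 0.019 with the replicate block. Sertoli scaling moved the median log2 fold change of all genes to 0.20 in KI-KI against WT-KI, with Cldn11 at 0.076 and Tjp1 at 0.053, and to -0.22 in WT-KI against WT-WT. There Cldn5 was at -0.13, Cldn11 at -0.063, Ocln at -0.041, Tjp1 at -0.19, Gja1 at -0.067 and Marveld2 at -0.031, and the replicate block gave Cldn5 -0.0085. The labels do not say that the replicate numbers pair the samples. Of 9 pairs with the same number, 2 correlated above 0.1, and r ran from -0.73 to 0.78. Of 9 libraries, 3 correlated best with their own number. WT-WT replicate 1 and KI-KI replicate 3, which had the highest scores, correlated at 0.80. Testes of different number can thus correlate highly, so this check cannot decide whether the numbers pair samples. Why these 2 correlated was not tested. With the replicate block 3186 genes had a called slope, Ocln among them.

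Leaving out each library in turn, the log2 fold change in KI-KI against WT-WT ran from -0.29 to 0.26 for Cldn3, -0.29 to 0.10 for Cldn5, -0.20 to 0.12 for Cldn11, -0.32 to 0.10 for Ocln, -0.22 to 0.11 for Gja1 and -0.16 to 0.042 for Jam2. In KI-KI against WT-KI it ran from -0.17 to 0.38 for Cldn3, -0.38 to 0.20 for Cldn5, -0.28 to 0.012 for Tjp1 and -0.0013 to 0.10 for Cdh2. In WT-KI against WT-WT it ran from -0.29 to 0.0084 for Cldn3, -0.31 to 0.27 for Cldn5, -0.076 to 0.24 for Cldn11, -0.14 to 0.39 for Ocln, -0.14 to 0.16 for Tjp1, -0.021 to 0.30 for Gja1 and -0.027 to 0.32 for Marveld2.

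For the slope on the score, 4031 genes were called. Leaving out each library gave between 2001 and 6131 genes and between 0 and 5 members, with slopes from -0.065 to 0.068 for Cldn5 and from -0.020 to 0.040 for Tjp1. The fewest genes were called without WT-WT replicate 1. Limma called 2 members with either pseudocount (Cldn11 and Ocln), as did the fits without the genotype and without the 5 late spermatid genes in the score. Tjp1 was at -0.025 and -0.024 with limma and the smaller and larger pseudocount. With limma on log2(FPKM + 0.1), 2499 genes fell and 2078 rose, against 1288 and 2743 with edgeR. With Sertoli scaling 38 fell and 3127 rose, and Cdh2 was at 0.044. A score from the spermatocyte markers, which varied little, called 0 genes and 0 members. Its slopes were -3.38 for Cldn3, 1.12 for Ocln, -2.05 for Tjp1 and 0.057 for Marveld2. They are per unit of a score that ran only from 7.58 to 7.74. Their size cannot be set beside that of the slopes on the round spermatid score. The causes of these changes were not tested. Marveld2 had the fewest counts of the members (between 29 and 65), and whether depth set the width of its intervals was not tested.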
